A study of Mus musculus with 2 samples.

Results

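Complement genes and receptors were examined in single spinal microglia of male mice. The set held 7 genes, chosen by symbol: the C1q chains C1qa, C1qb and C1qc, the central component C3, the anaphylatoxin receptors C3ar1 and C5ar1, and the regulator Cd55. All 7 were among the 32285 genes of the deposited count tables, and 6 of them had at least 1 unique molecular identifier (UMI, the tag that marks 1 captured molecule). There was 1 library from control mice, labelled WT and given as Eif4ebp1 fl/fl in a legend of the study, and 1 library labelled 4E-BP1-cKO (Eif4ebp1 fl/fl:TMEM119 CreERT2). In the second genotype Cre recombinase is expressed from the TMEM119 locus, which is active in microglia, and is turned on by 4-hydroxytamoxifen. The mice received this drug from P4 to P9 and were used at 8 to 10 weeks of age. Lumbar cords were digested with collagenase IV, and cells were sorted by the gate CD45lo CD11b+ CX3CR1+, given in the study's methods as CD11b hi and CX3CR1 hi. The sources used here do not give the number of mice behind each library.

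With 1 library per genotype, no p-value was computed for any difference. All intervals are 95% intervals of counting error, and none of them covers the spread between mice. Intervals on UMI counts treat each UMI as independent, so they also leave out variation between cells. A barcode was kept if over 300 genes were detected in it and under 5% of its UMIs were mitochondrial, which left 1147 control cells with 4803562 UMIs and 445 cells with 1734332 UMIs in the library labelled 4E-BP1-cKO. The median depth was 3053 and 2776 UMIs per cell. At least 3 of 9 microglial markers (among them Tmem119, P2ry12, Cx3cr1, Csf1r and Sall1) had a UMI in 93.5% of control cells and in 90.6% of the other cells. At least 3 markers of another cell type were found in 15 and 3 cells. The libraries shared 0 barcodes. The targeted gene Eif4ebp1 had 95 UMIs among control cells, or 19.8 UMIs per 1000000 (CPM), and 51 UMIs, or 29.4 CPM, in the library labelled 4E-BP1-cKO. The ratio of 1.49 (1.04 to 2.11) ran opposite to the label, but genotyping in the study names exon 2 for the conditional allele, and reads from the 3′ end can lie outside that exon, in which case these counts check nothing. Tmem119, the locus that carries CreERT2, stood at 433 and 142 CPM. The libraries are named below by their labels.

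Complement is a cascade of plasma and tissue proteins that tags cells, debris and synapses for removal. C1q, built from equal numbers of its A, B and C chains, starts the classical pathway and leads to cleavage of C3, whose fragments bind targets or act on the receptor C3aR, while the fragment C5a acts on C5aR1. In the nervous system microglia are the main source of C1q, and C1q and C3 are known for their part in the removal of synapses by microglia.

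The C1q genes form a tight cluster in the genome. In the mm10 build (GRCm38), C1qa lay at chr4:136895916-136898844, C1qc at chr4:136889801-136892936 and C1qb at chr4:136880126-136886200, so that the 3 genes fitted in 18719 bases. The other members were on different chromosomes, with C3 at chr17:57203967-57228136, C3ar1 at chr6:122847140-122856157, C5ar1 at chr7:16246743-16259540 and Cd55 at chr1:130429798-130465009. Promoters from RefSeq (GRCm38.p6, 250 bases before to 50 bases after each start) were matched for 6 of the 7 members, all but C1qa. They were searched on both strands for AGGAAGT, a core of the ETS family sites that the macrophage factor PU.1 also binds. These letters, or ACTTCCT on the opposite strand, were present in the promoters of C1qb, C1qc and C5ar1, and in 3072 of 32851 promoters (9.35%) of the table. They were not found in the windows of C3, C3ar1 and Cd55. Whether these letters relate to the covariation of the C1q chains across cells (below) was not tested. No promoter of C1qa was searched. The 30 bases around each match are shown. Capitals mark the match, and each is read 5′ to 3′ on the minus strand, the strand of the gene.
C1qb, chr4:136886235-136886264, first base of the match 53 bases before the start: caggacctgaaACTTCCTgagggcagcagg
C1qc, chr4:136893091-136893120, 195 bases before the start: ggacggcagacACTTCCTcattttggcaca
C5ar1, chr7:16259392-16259421, 72 bases before the start: tggggccagagACTTCCTtccttttccaag
C5ar1, chr7:16259510-16259539, 190 bases before the start: gaaactccaaaACTTCCTtcagaagaggta
Positions count from the start that the promoter table uses. For C1qc and C5ar1 that start lies inside the RefSeq gene span given above. Both C5ar1 windows also lie inside the span, while the C1qc window lies outside it. A match describes the letters in these windows and was not tested as a binding site.

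The C1q chains were among the most abundant messages of these cells. Each UMI was taken to stand for 1 molecule read from its 3′ end, and levels of different genes were compared without a correction for length. The use of intronic reads was not stated, and an effect of gene length on these levels was not tested. C1qa was the gene of rank 19 by UMIs in the control library, with 12787 UMIs (2662 CPM), and of rank 16 in the library labelled 4E-BP1-cKO, with 5139 UMIs (2963 CPM). C1qb had 12421 UMIs (2586 CPM) and 4874 UMIs (2810 CPM), at ranks 20 and 19. C1qc had 9982 UMIs (2078 CPM) and 4077 UMIs (2351 CPM), at rank 25 in both libraries. The order C1qa, C1qb, C1qc was the same in both libraries, and in neither did the interval of C1qc overlap those of the other chains, while those of C1qa and C1qb overlapped in both. Together the chains took 0.733% of all UMIs of control cells and 0.812% of those in the other library.

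A C1q UMI was found in nearly every cell. At least 1 UMI of any chain was found in 98.7% of control cells (97.9 to 99.3) and in 97.8% of cells of the library labelled 4E-BP1-cKO (95.9 to 98.9). All 3 chains were found in 76.3% and 76.0% of cells. The 15 control cells and 10 other cells without a C1q UMI had low median depths, of 1436 and 907.5 UMIs. The deepest of them had 3132 and 2091 UMIs, so not all were shallow. When each cell was thinned to 872 UMIs, which left out 89 control and 70 other cells, C1qa was detected in 73.0% of control cells and 81.9% of the other cells, against 90.6% and 88.3% before thinning. C1qb was detected in 72.4% and 76.8% of thinned cells, against 89.7% and 87.0% before, and C1qc in 67.4% and 75.7% of thinned cells. The order of the libraries for C1qa and C1qb thus changed with thinning, which set equal depth and also left out the shallowest cells. A background from cells that should lack C1q rested on few cells. At least 3 endothelial markers were found in 4 control cells, and all 4 also had C1q UMIs, at 3939 CPM in sum. That level was above that of the control cells poor in ribosomal messages described below. The 3 control cells with oligodendrocyte markers and 3 with erythrocyte markers had C1q at 11257 and 5328 CPM. Both of these groups had a median of 6 microglial markers, against 2 in the endothelial group, so neither gives a background without microglial messages. The control cells with oligodendrocyte markers were also deep, with a median of 17613 UMIs. In the other library, the 1 cell with oligodendrocyte markers, with 1300 UMIs and 2 microglial markers, had 0 C1q UMIs. C1q was not examined separately in the 1 control cell with neuronal markers or the 1 other cell with T cell markers. Some deep cells had little C1q. A control cell of 9161 UMIs had a C1q share of 0.0218%, and a cell of 3769 UMIs in the other library had 0.0265%. Detection alone is therefore not read as expression.

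C3 was close to the limit of detection. It had 15 UMIs in 10 control cells (3.12 CPM, 1.75 to 5.15) and 6 UMIs in 6 cells of the library labelled 4E-BP1-cKO (3.46 CPM, 1.27 to 7.53). C3 was thus found in 0.872% of control cells and 1.35% of the other cells, and no more than 5 UMIs came from 1 cell. None of these cells had at least 3 markers of another cell type. Of the C3 UMIs, 7 of 15 and 3 of 6 lay in cluster 1 of the clusters described below, in 3 cells of each library. The control cell with 5 UMIs was among them. Cluster 1 held 15.6% of control cells and 14.4% of the other cells. So few cells do not place C3 in a cluster. With so few molecules no difference in C3 could be seen at this depth.

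The receptors stood between these extremes. C3ar1, the receptor of the C3a fragment, had 2109 UMIs (439 CPM) among control cells and 847 UMIs (488 CPM) in the other library, and was found in 61.1% and 58.0% of cells (27.6% and 32.5% after thinning). C5ar1, the receptor of C5a, had 1267 UMIs (264 CPM) and 570 UMIs (329 CPM), and was found in 36.6% and 40.4% of cells (16.8% and 21.1% after thinning). C3ar1 was therefore the higher receptor in both libraries, and both receptors were found together in 27.5% and 29.9% of cells. Cd55, which speeds the decay of the C3 convertases on the cell surface, had 0 UMIs in both libraries. A floor of 3 counts corresponds to 0.6245 CPM, or a UMI in 0.262% of cells, in the control library. In the other it corresponds to 1.73 CPM or 0.674% of cells. The exact upper limits for a count of 0 were higher, at 0.768 and 2.13 CPM. Its paralog Cd55b was also at 0, and no source used here says how reads shared by near-identical genes were counted, so Cd55 remains uncertain.

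**Figure D1:**
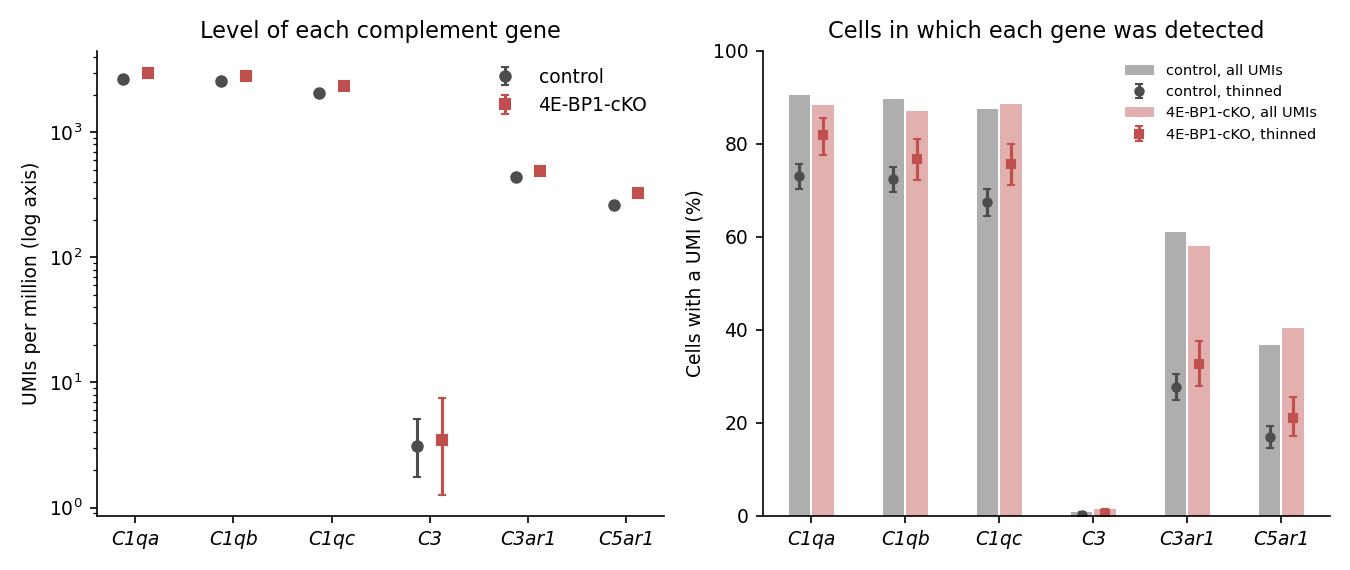
Left, the CPM of each complement gene on a log axis in the control library (circles) and the library labelled 4E-BP1-cKO (squares), with exact Poisson 95% intervals. Right, the percent of cells with a UMI from all UMIs (bars) and after thinning each cell to 872 UMIs (points with exact binomial 95% intervals). The C1q chains lie above 2000 CPM, the receptors between 264 and 488, and C3 near 3. Cd55 had 0 UMIs and is not drawn.

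Between the libraries, every member with a UMI was slightly higher in the one labelled 4E-BP1-cKO, and 0 of 6 members passed a ratio of 1.5 in either direction. Of the 11784 genes with at least 20 UMIs, 18.8% passed that ratio. The sum of the C1q chains had a ratio of 1.11 (1.09 to 1.13), with 1.11 for C1qa (1.08 to 1.15), 1.09 for C1qb (1.05 to 1.12) and 1.13 for C1qc (1.09 to 1.17). C3ar1 had a ratio of 1.11 (1.03 to 1.21) and C5ar1 one of 1.25 (1.13 to 1.38). For C3 the ratio of 1.11 had an interval of 0.352 to 3.02. With no replicate library, none of these differences could be set against the spread between mice.

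The C1q ratio was nearer to 1 among cells rich in ribosomal protein messages than among cells poor in them, a difference that 1 library per genotype cannot test. Cells were divided at 3% of their UMIs from 86 ribosomal protein genes, a limit near which many cells lay, since 190 control and 64 other cells had between 2% and 4%. Cells with at least 3% made up 43.4% of control cells and 53.5% of cells labelled 4E-BP1-cKO. Within the cells with at least 3%, the sum of C1q was 9588 CPM in the control library and 9805 CPM in the other, a ratio of 1.02 (1.001 to 1.045). Within the cells under 3%, it was 3613 and 4270 CPM, a ratio of 1.18 (1.13 to 1.24). By chain, the ratios there were 1.26 (1.16 to 1.36) for C1qa and 1.232 (1.127 to 1.345) for C1qc. For C1qb the ratio was 1.07 (0.984 to 1.16), an interval that included 1. C5ar1 had ratios of 1.17 (1.04 to 1.32) and 1.38 (1.14 to 1.65) in these classes, and C3ar1 of 1.15 (1.04 to 1.27) and 1.004 (0.861 to 1.17).

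Inside each library, by contrast, the 3 C1q chains differed strongly between these cells while the receptors differed less. In the control library the sum of C1q in cells under 3% was 0.377 times (0.367 to 0.387) that in cells with at least 3%, and in the other library it was 0.436 times (0.416 to 0.456). C1qa stood at 1246 against 3525 CPM in the control library and at 1566 against 3572 CPM in the other. C1qb stood at 1313 against 3361 CPM and at 1405 against 3423 CPM, and C1qc at 1054 against 2702 CPM and at 1299 against 2810 CPM. Each chain was thus past the 1.5-fold limit in both libraries. Of all genes with at least 20 UMIs, 21.7% were that much lower in the control library and 24.5% in the other, and 43.7% and 50.2% differed by that much in either direction.

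C3ar1 did not pass the limit in either library when all UMIs were used. It stood at 422 CPM in control cells under 3% and at 450 CPM in control cells with at least 3%, a ratio of 0.938 (0.857 to 1.03), and the other library gave a ratio of 0.819 (0.700 to 0.956). After thinning, C3ar1 was at -0.62 (log2) in the library labelled 4E-BP1-cKO, past the limit, and at -0.24 in the control library. C5ar1 had ratios of 0.802 (0.712 to 0.903) and 0.942 (0.782 to 1.13). C3 had 9 against 6 UMIs and 3 against 3 UMIs, which is too few for a ratio to be read.

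Several other properties moved with this division. Cells under 3% were shallower, with medians of 2353 against 5537 UMIs for control cells and 1934 against 4699.5 in the other library. The nuclear RNA Malat1 was higher in them, by 0.78 and 0.62 on the log2 scale with a pseudocount of 1 CPM. Microglial markers ranged in the control library from Olfml3, at -1.36, to Sall1, at 0.09, so that C1q (-1.41) lay beside the lowest of them. In the library labelled 4E-BP1-cKO the log2 difference of C1q was -1.20. Over all genes with at least 20 UMIs the median log2 difference was 0.11 in the control library and 0.09 in the other. When cells with fewer than 1000 UMIs were left out, an alternative chosen after the data were seen, the log2 differences of C1q were -1.41 and -1.21. With each cell thinned to 872 UMIs they were -1.65 and -1.34, so the difference was also present at equal depth. The part of nuclear RNA in it was not tested.

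**Figure D2:**
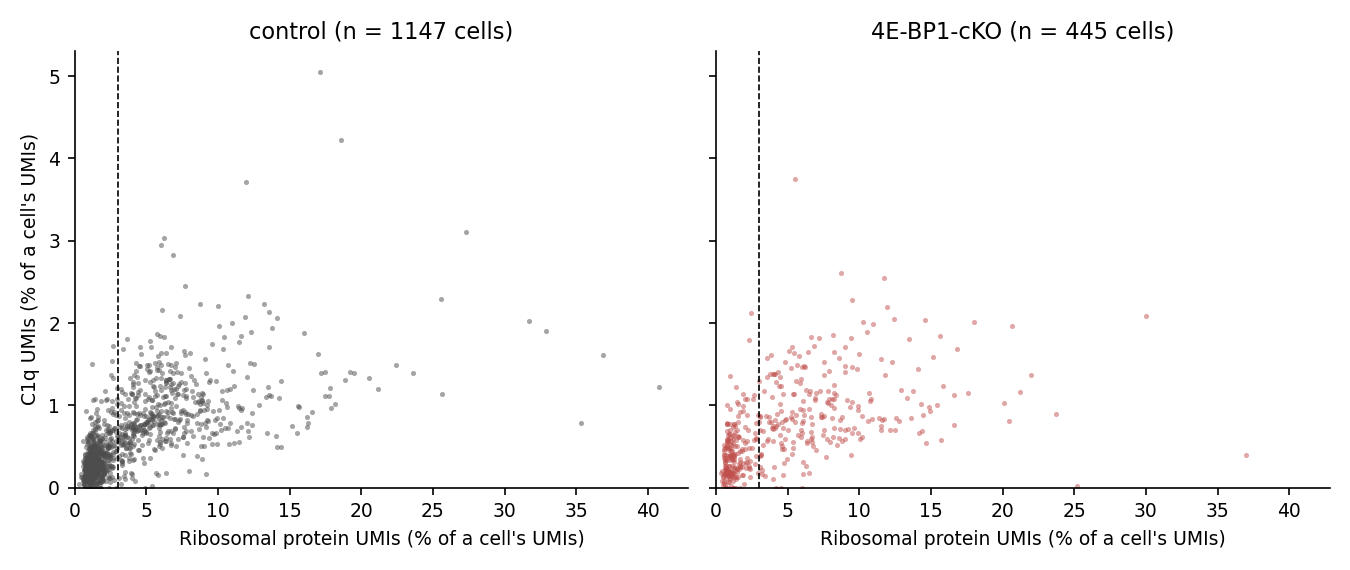
Each point is 1 cell, with its ribosomal protein share on the x axis and its share of UMIs from C1qa, C1qb and C1qc on the y axis, both in percent of the cell's UMIs. The dashed line marks 3%. Median C1q shares were 0.280% left of the line and 0.901% right of it in the control library, and 0.359% and 0.882% in the library labelled 4E-BP1-cKO.

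The single-cell values showed the same shift with wide overlap. In control cells under 3%, the 5th percentile, median and 95th percentile of the C1q share were 0.064%, 0.280% and 0.766% of a cell's UMIs. In control cells with at least 3% they were 0.352%, 0.901% and 1.87%. The corresponding values in the library labelled 4E-BP1-cKO were 0.049%, 0.359% and 1.03%, and 0.253%, 0.882% and 1.91%. The highest share in any cell was 5.05% in the control library and 3.75% in the other.

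Among cells with at least 3% ribosomal UMIs, the complement genes were then compared between cells with a high and a low share of 12 early genes (Fos, Jun, Egr1 and others), which rise quickly when cells are dissociated. No member with at least 20 UMIs passed 1.5-fold in either direction in either library, while 21.6% of all genes tested did so in the control library and 25.6% in the other. C1q was 9122 CPM in control cells with a high share and 10114 CPM in those with a low share, a ratio of 0.902 (0.881 to 0.923). In the other library the values were 9736 and 9892 CPM, with a ratio of 0.984 (0.949 to 1.02). The receptors leaned the other way. C3ar1 had ratios of 1.16 (1.04 to 1.30) and 1.14 (0.969 to 1.34), and C5ar1 of 1.06 (0.921 to 1.21) and 1.30 (1.06 to 1.60). These small differences depended on the processing: in the library labelled 4E-BP1-cKO, C3ar1 turned to -0.20 (log2) after thinning and C1q to 0.12 as a mean of per-cell shares. Depth moved with this division too, with medians of 6132.5 against 4814.5 UMIs for control cells and 5285 against 3769 in the other library.

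**Figure D3:**
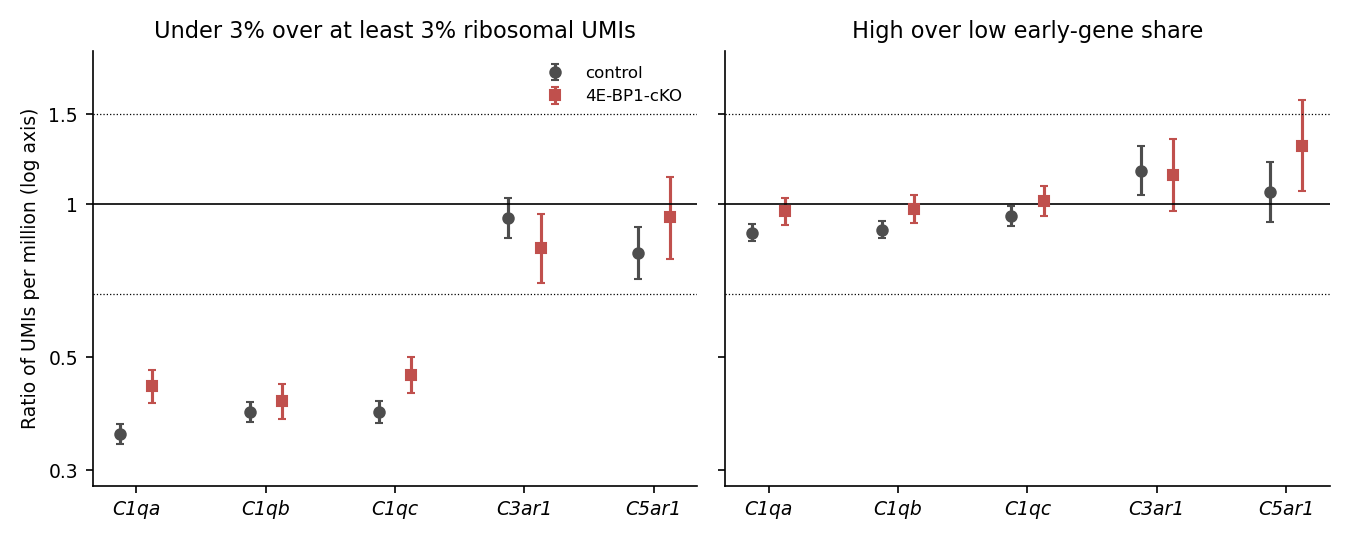
Ratios of CPM on a log axis, with exact 95% counting intervals, for cells under 3% over cells with at least 3% ribosomal protein UMIs (left) and for cells at or above over cells below the median early-gene share (right), in the control library (circles) and the library labelled 4E-BP1-cKO (squares). Dotted lines mark 1.5-fold. The points of the C1q chains in the left panel are the ones past a dotted line.

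Cells were clustered without the complement genes, which gave 9 clusters, numbered by size and given no cell type name. The order of the clusters by C1q was the same in both libraries (Spearman's rho of 1 over 9 clusters, given as a description, since the clusters of a library share its depth and were found in both libraries together). C1q was lowest in clusters 1 and 2, at 2763 and 2681 CPM in the control library and 3610 and 3238 CPM in the other. These clusters had median ribosomal shares of 1.28% and 1.08%. Clusters 4 and 8, also poor in ribosomal messages (1.47% and 1.34%), followed at 3526 and 4546 CPM in the control library and at 3838 and 4546 CPM in the other.

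The C1q-rich clusters differed in other ways. Cluster 9, with 26 control and 18 other cells, a median ribosomal share of 19.4%, and Apoe (a lipid carrier) and Lyz2 (lysozyme) among its leading genes, held the most C1q, at 16131 CPM in the control library and 12227 CPM in the other. Cluster 3, led among others by Fos, the chemokine Ccl3 and the heat shock gene Hspa1a, had 10210 and 11303 CPM. Cluster 6, with Clec1b among its leading genes, had 9502 and 10431 CPM. Cluster 7, led among others by the chemokine Cxcl2 and the metallothioneins Mt1 and Mt2, had 8146 and 8318 CPM, although its median ribosomal share of 10.0% was above that of clusters 3 (6.75%) and 6 (4.42%). Cluster 5, whose leading genes included Cxcl10 and the myelin gene Mbp, was the shallowest, with a median of 757 UMIs, and had 8000 and 6757 CPM. Its control cells reached up to 28109 UMIs. CPM values pool the UMIs of a cluster, so its deep cells weigh more in them than its shallow ones.

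C5ar1 was spread over the clusters in another order, and that order was similar in the libraries (rho of 0.917). Its highest values in the control library were 550 CPM in cluster 1, 465 CPM in cluster 7 and 381 CPM in cluster 5. The same clusters had 460, 482 and 319 CPM in the other library. Its lowest control values were 84.2 CPM in cluster 6 and 102 CPM in cluster 2, against 159 and 190 CPM in the other library. Cluster 1 was thus low in C1q and high in C5ar1, and cluster 6 high in C1q and low in C5ar1. In the library labelled 4E-BP1-cKO, cluster 1 included cells of 35216 and 25056 UMIs, against a median of 2157. These cells weigh heavily in its CPM values. In cluster 7, C5ar1 was found in 81.6% of control cells and 86.3% of the other cells, but this cluster was also the deepest, with a median of 8405 UMIs.

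C3ar1 varied least across clusters. Its control values ran from 273 CPM in cluster 9 (196 to 370) to 601 CPM in cluster 7 (552 to 653), with cluster 1 at 593 CPM (526 to 667), and the remaining clusters between 307 and 395 CPM with largely overlapping intervals. In the other library cluster 7 was again highest, at 702 CPM (624 to 788), while cluster 9 stood at 517 CPM (380 to 688) and cluster 1 at 460 CPM (373 to 561). The order of clusters was therefore less alike than for C5ar1 (rho of 0.317).

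**Figure D4:**
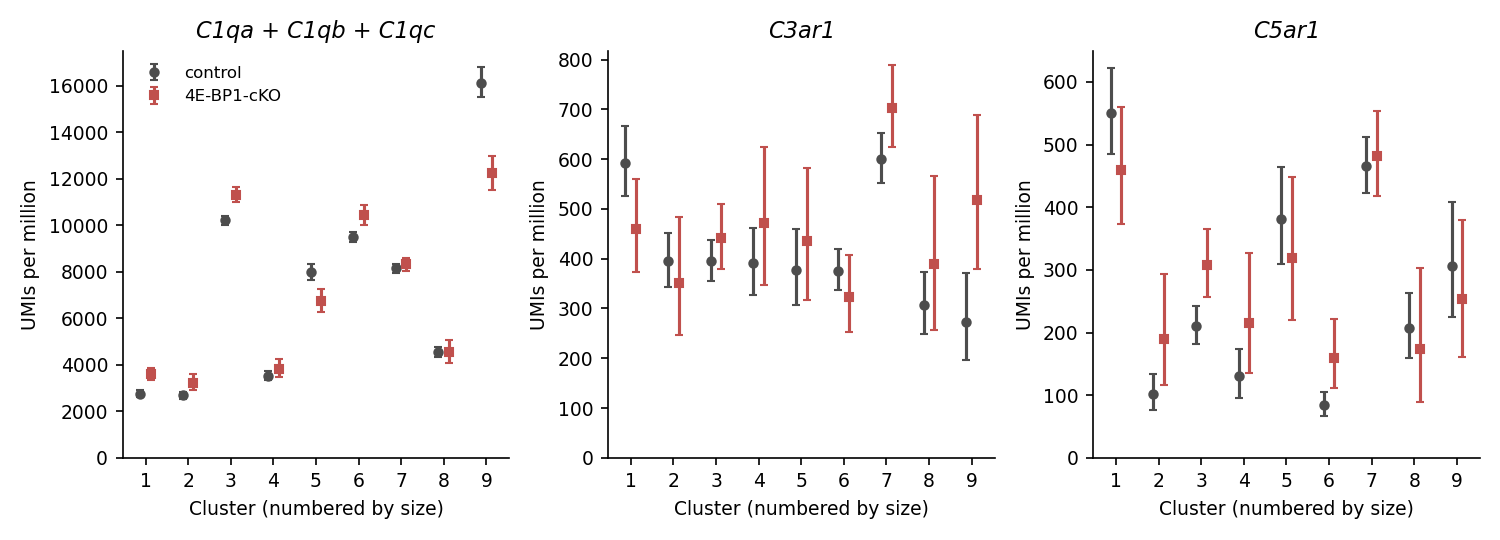
CPM of the summed C1q chains, C3ar1 and C5ar1 in each of the 9 clusters (x axis, numbered by size), with exact Poisson 95% intervals, in the control library (circles) and the library labelled 4E-BP1-cKO (squares). C1q ranges from 2681 to 16131 in the control library, and C5ar1 is high in clusters 1 and 7 of both libraries.

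Because counts per cell are low, covariation was described by a correlation from which Poisson sampling noise had been removed. The C1q chains varied closely together. C1qa with C1qb had a correlation of 0.935 over 1147 control cells and 0.879 over 445 cells labelled 4E-BP1-cKO. C1qa with C1qc had 0.936 and 0.892, and C1qb with C1qc 0.952 and 0.937. Without the correction these values ranged from 0.680 to 0.783. Among cells with at least 3% ribosomal UMIs the corrected values were 0.906, 0.910 and 0.928 in the control library and 0.841, 0.815 and 0.895 in the other. Among cells under 3% they were 0.850, 0.792 and 0.910 in the control library and 0.750, 0.956 and 0.990 in the other. The cells of a library share its preparation and differ in depth and base composition, so these values carry no p-value.

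The proportions of the chains varied within limits. C1qa made up 36.3% of control C1q UMIs, C1qb 35.3% and C1qc 28.4%, and in the other library the shares were 36.5%, 34.6% and 28.9%. Across clusters C1qa ranged from 32.6% to 38.5% of C1q UMIs in the control library and from 32.8% to 39.97% in the other. C1qb ranged from 33.4% to 37.1% and from 31.0% to 38.9%, and C1qc from 27.5% to 30.95% and from 27.0% to 34.6%. That highest C1qc share, in cluster 2, rested on 118 UMIs (29.6 to 39.9). In control cells under 3%, C1qb made up 36.4% (35.2 to 37.5) and C1qa 34.5% (33.3 to 35.6). The cells under 3% in the other library had 32.9% (31.0 to 34.9) and 36.7% (34.7 to 38.7). The intervals of these chains overlapped in both libraries, so their order in these cells is not read as resolved. In cells with at least 10 C1q UMIs the split varied 1.33 and 1.32 times as much as a multinomial draw with fixed proportions would, over 625 and 271 cells.

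The receptors followed neither C1q nor each other closely. C3ar1 and C5ar1 had a noise-corrected correlation of 0.198 in the control library and 0.190 in the other. C1q had correlations of -0.013 and -0.017 with C3ar1, and of -0.038 and -0.016 with C5ar1. Weak values of this kind in sparse counts are not read as a relation. After removal of sampling noise, the coefficient of variation between cells was 60.8% and 52.8% for C1q, 76.1% and 77.0% for C3ar1, and 137% and 122% for C5ar1. C5ar1 was therefore the most unevenly spread of the members with enough UMIs to be measured. Among cells with at least 3% ribosomal UMIs the C1q values were 40.6% and 38.5%.

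**Figure D5:**
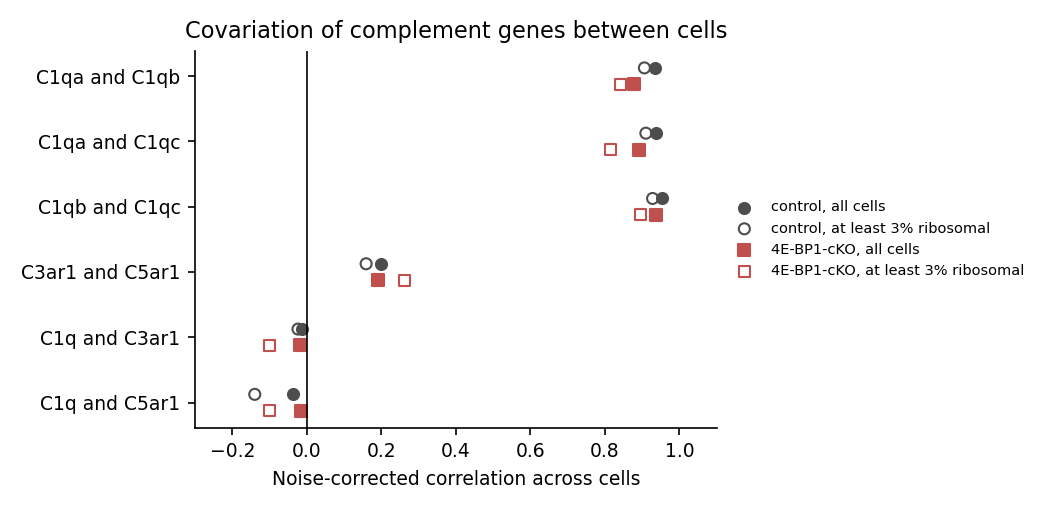
Noise-corrected correlations across cells (x axis) for 6 pairs of complement genes, in the control library (circles) and the library labelled 4E-BP1-cKO (squares). Filled symbols are all cells, open symbols the cells with at least 3% ribosomal protein UMIs. The C1q pairs lie above 0.8 and the other pairs below 0.3.

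The genes most like C1q across cells were then listed, ranked by the lower correlation of the libraries among genes with at least 500 UMIs in each. For the sum of the chains, 653 genes were compared, with a median of -0.13. The nearest were Trem2, a lipid receptor of microglia (0.924 and 0.880), Cst3, the protease inhibitor cystatin C (0.894 and 0.844), the tetraspanin Cd81 (0.868 and 0.825), the immune receptor adaptor Fcer1g (0.856 and 0.816) and the NADPH oxidase subunit Cyba (0.813 and 0.988). For the single chains the other chains came among the first 3, together with Trem2, Cst3, Cd81, Cyba and, for C1qa, the lysosomal membrane protein Laptm5 (0.835 and 0.791).

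For the receptors the nearest genes were less close. They were the highest of 655 genes, and their values are not read as relations. In simulated pairs at 300 CPM with a correlation of 0, the estimates had standard deviations of 0.12 (control) and 0.21 (4E-BP1-cKO). The variance between cells in that simulation was not matched to these genes, so it cannot settle their order, which was not tested. C5ar1 was nearest to Nlrp3, an inflammasome sensor (0.390 and 0.424), followed by the survival gene Bcl2a1b (0.359 and 0.335), the proteoglycan Srgn (0.322 and 0.321), the stress gene Gadd45b (0.313 and 0.329) and Rab8b, a small GTPase (0.335 and 0.264). Bcl2a1b has near-identical copies, so its counts are uncertain. C3ar1 was nearest to Kdm6b, a histone demethylase (0.272 and 0.266), Mcl1, a survival gene (0.310 and 0.261), Atp6v0c, a proton pump subunit (0.227 and 0.308), Nlrp3 (0.298 and 0.223) and Cdk6, a cyclin-dependent kinase (0.232 and 0.210).

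Of 48 further complement genes, 14 had at least 20 UMIs over both libraries, 18 had between 1 and 19, and 16 had 0. Those with 0 included C4a, the C1 proteases C1rb, C1s1 and C1s2, factor D (Cfd), factor I (Cfi) and the terminal components C6, C7, C8a and C8b. C4b had 2 UMIs, Cfb 2, C2 6 and properdin (Cfp) 4 over both libraries. C4a and C4b are near-identical copies, so their counts are uncertain. None of the components named here exceeded 6 UMIs.

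The measured genes of this list were mainly regulators and receptors. Csmd3, a large membrane protein with complement control domains, had the most UMIs, at 4068 and 4050 CPM, with no correction for gene length. Itgam and Itgb2, the chains of complement receptor 3, had 495 and 486 CPM and 127 and 126 CPM. The C1q-binding proteins Calr and Lrp1 had 287 and 277 CPM and 226 and 207 CPM, C1qbp had 29.8 and 36.9 CPM, the regulator Cr1l had 62.0 and 64.0 CPM and Cd46 had 15.6 and 12.7 CPM. The lectin pathway protease Masp1 had 7.08 and 8.65 CPM.

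Of the 14, 2 were more than 1.5-fold higher and 2 more than 1.5-fold lower in the library labelled 4E-BP1-cKO, where 5.34% and 13.5% of all genes tested were. The median log2 ratio of the 14 was -0.02, against -0.05 over all genes tested. C5ar2, the second C5a receptor, had 220 UMIs in 165 control cells (45.8 CPM) and 52 UMIs in 41 other cells (29.98 CPM), a ratio of 0.655 (0.474 to 0.889), in the opposite direction to C5ar1. Averaged over clusters, its log2 ratio was -1.77 in place of -0.60. Csmd1, a relative of Csmd3, had 33 UMIs in 26 control cells and 0 in the other library, a ratio of 0 (0 to 0.328). If set at a floor of 3 counts over that library, Csmd1 would be 3.97-fold lower. C1rl and Itgax each had 24 and 16 UMIs, a ratio of 1.85 (0.917 to 3.62). The counting interval of that ratio included 1, and C1rl turned to -0.86 (log2) after thinning.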

How the data were processed

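Spinal microglia were profiled with the 10x Chromium 3′ assay, 1 library per genotype. The authors deposited unnormalized counts of UMIs, made with Cell Ranger (version 8.0.1 in the file headers) on the mm10 genome. The annotation release and the use of intronic reads were not stated. Cell calling had been applied, with smallest barcodes of 500 and 501 UMIs. The members and gene lists were chosen with earlier results of these data known.

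UMIs were summed over kept cells and divided by their total, as UMIs per 1000000 (CPM), with a pseudocount of 1 CPM for log2 values. Intervals are exact Poisson intervals (levels), exact conditional Poisson intervals (ratios) and Clopper-Pearson intervals (shares). They cover counting error only. A gene counted as past the fold with a ratio over 1.5 or under its inverse and at least 20 UMIs. No test was made, because cells are not replicates. Cells were thinned to 872 UMIs, the 10th percentile of depth when both libraries were joined.

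Clusters came from SCTransform (sctransform 0.4.2) and RPCA integration in Seurat 5.3.0 (R 4.3.3) at a resolution of 1.4 on 20 principal components, after removal of the members and of 48 further complement genes. Noise-corrected correlations divided the covariance of counts around their depth-scaled means by the variances left after the Poisson part was removed, with cells weighted by depth. Doublets were not removed, following the rule for kept barcodes. Scrublet in scanpy 1.11.5 called 4 control cells (11 expected) and 11 cells of the other library (2 expected), and served as an alternative. Python 3.11.15, numpy 2.4.6, scipy 1.17.1, pandas 2.3.3 and matplotlib 3.10.9 were used, and edgeR 4.0.16 for TMM factors. The ratio intervals, the 1.5-fold calls and the noise-corrected correlation were tested on simulated data. The other steps were not.

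The genes named are the members, every gene of the complement list with at least 20 UMIs, and the 5 nearest genes of the C1q sum and of each member with at least 200 UMIs in each library. Values of some listed genes are not reported here. The leading genes of clusters, Malat1, and the complement genes under 20 UMIs were named after their values were seen.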

Additional observations from a re-analysis of the deposited data

Results flagged for a closer look

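C1qc differed in direction from one library to the other between cells with a high and a low early-gene share, at -0.076 (log2) in the control library and 0.021 in the library labelled 4E-BP1-cKO. This difference between libraries was not tested, and the counting interval of the second ratio (0.948 to 1.09) included 1.

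C1q was also present in the barcodes that were not kept, which entered no comparison. It had 5779.5 CPM in the 69 such barcodes of the control library, where 67 carried it, and 6433.5 CPM in the 29 of the other library, where 27 carried it. Their median depths were 993 and 727 UMIs, and a median of 4 microglial markers was detected in both.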

How the results depend on the processing

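With 1 library per genotype, no replicate could be left out. No paired analysis was possible because the libraries have 1 sample each and no test was made. Of the alternatives to the values that answer a comparison, 174 stayed within the counting interval of the main value or, for counts, within 1.5 times of it, and 42 moved. Between the libraries no member changed direction except C3, with 15 and 6 UMIs, which stood at -0.17 (log2) averaged over clusters. C1rl, with 40 UMIs, turned to -0.86 (log2) after thinning, and the cause was not tested.

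Between the libraries, the log2 ratio of C1q was 0.19 with TMM factors, 0.24 as a mean of per-cell shares, 0.11 averaged over clusters and 0.25 after thinning. As a mean of per-cell shares it was 0.23 for C1qa, 0.22 for C1qb and 0.27 for C1qc. Thinned, it was 0.30 for C1qa, 0.18 for C1qb, 0.29 for C1qc and 0.35 for C3ar1. Averaged over clusters, C1qb had 0.038. Genes past 1.5-fold numbered 629 higher and 1587 lower, but 2396 and 6607 with a minimum of 1 UMI and 63 and 169 with a minimum of 200 UMIs.

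Between cells under 3% and with at least 3% ribosomal UMIs, the log2 ratio of C1q in the control library was -1.52 without ribosomal, mitochondrial and early genes in the total, -1.65 thinned, -1.57 as a mean of per-cell shares, -1.67 at a limit of 2% and -1.25 at 4%. In the library labelled 4E-BP1-cKO it was -1.33 without those genes, -1.34 thinned, -1.39 at 2% and -1.01 at 4%. C3ar1 was at -0.24 (control) and -0.62 (4E-BP1-cKO) thinned, the second past the 1.5-fold limit, and at 0.055 (control) at 2%. C5ar1 was at -0.014 as a mean of per-cell shares and -0.14 at 2% (control), and at -0.49 at 4% (4E-BP1-cKO).

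By early-gene share, thinned values in the control library were -0.19 for C1q, 0.42 for C3ar1 and 0.49 for C5ar1, and C3ar1 turned to -0.20 in the library labelled 4E-BP1-cKO, where C1q was at 0.12 as a mean of per-cell shares. At a resolution of 0.8 the control log2 ratio of the highest over the lowest cluster was 1.74 for C1q and 0.64 for C3ar1. Correlations moved after thinning for C3ar1 with C5ar1 (0.034, control), C1qa with C1qb (1.14, 4E-BP1-cKO, above 1 because the correction is unstable at low counts) and C1q with C3ar1 (0.175, 4E-BP1-cKO). In cells with at least 3% ribosomal UMIs, C1q with C5ar1 had -0.14 (control).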

Other observations

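Further complement genes also differed between cells under 3% and cells with at least 3% ribosomal protein UMIs. Csmd3 was higher in the cells under 3% by 0.68 (log2) in the control library and 0.93 in the library labelled 4E-BP1-cKO, and Lrp1 by 0.71 and 0.38. The C1q-binding proteins Calr and C1qbp lay in the other direction, Calr at -1.01 and -0.86 and C1qbp, with few UMIs, at -1.04 in both.

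Among cells with at least 3% ribosomal UMIs, the share of C1q was larger in the third of cells with the lowest depth than in the third with the highest, at 11259 against 8880 CPM in the control library and 11559 against 9522 CPM in the other. C5ar1 lay in the other direction, at 195 against 302 CPM (0.644, 0.479 to 0.852) and 225 against 334 CPM (0.674, 0.428 to 1.02). These depth classes were set after earlier results of the data were known, and the difference was not tested.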
